A study of Mus musculus with 6 samples.

Results

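The FoxO transcription factors Foxo1, Foxo3 and Foxo4 and the cyclin-dependent kinase (CDK) inhibitors Cdkn1a, Cdkn1b, Cdkn1c, Cdkn2c and Cdkn2d were examined in common myeloid progenitors (CMP) sorted by their content of reactive oxygen species (ROS). CMP are marrow progenitors upstream of both the granulocyte-monocyte and the megakaryocyte-erythrocyte branch of blood formation. High-ROS CMP (3 arrays) were compared with low-ROS CMP (3 arrays), all from C57BL6 mice, whose age, sex and genotype are not given in the labels. Marrow from femurs, tibiae and ilia was labelled with H2-DCFDA, which becomes fluorescent once oxidised, and each fraction took 15% to 20% of the CMP at its end of the staining. Every probe set annotated with the symbol of a member and no other symbol was read: 16 probe sets for the 8 genes, of 34945 probe sets with a single symbol and 45101 in all. The Entrez Gene identifiers are 56458 for Foxo1, 56484 for Foxo3, 54601 for Foxo4, 12575 for Cdkn1a, 12576 for Cdkn1b, 12577 for Cdkn1c, 12580 for Cdkn2c and 12581 for Cdkn2d. Whether replicates were separate mice or sorts is not stated in the labels, so p-values reflect only how these samples vary, which could be technical.

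CDK inhibitors hold cells back from division. The Cip/Kip proteins (p21 from Cdkn1a, p27 from Cdkn1b and p57 from Cdkn1c) bind cyclin-CDK complexes, and the INK4 proteins (p18 from Cdkn2c and p19 from Cdkn2d) bind the cyclin D partners Cdk4 and Cdk6. FoxO factors enter the nucleus when growth factor signalling through phosphoinositide 3-kinase and Akt is low, and there they switch on genes for cell cycle arrest, Cdkn1a and Cdkn1b among them, and for antioxidant defence. In mouse blood stem cells, loss of FoxO factors is known to raise ROS and to end quiescence.

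Cdkn1a showed the largest difference among the members, and none of the 16 member probe sets passed the test. At an adjusted p under 0.05 (limma, Benjamini-Hochberg over 34945 probe sets), 0 member probe sets were higher and 0 lower in high-ROS CMP, where 0.0200% of all probe sets were called in either direction. At an unadjusted p under 0.05, 3 of the 16 were lower and 0 higher, against 3.59% of all probe sets lower and 3.72% higher. The 3 were both Cdkn1a probe sets and that of Cdkn2d, and probe sets of 1 gene are not independent. The median log2 fold change of the 16 was -0.10, against 0.01 over all probe sets. Of the 16, 13 had a negative fold change, and these were the 13 with a mean signal of at least 100. The other 3, for Foxo1, Foxo4 and Cdkn1c, had means under 100 and fold changes between 0.04 and 0.08. Of all probe sets with a mean signal of at least 100, 51.4% had a negative fold change. Of these 14078 probe sets, 734 were lower and 675 higher at an unadjusted p under 0.05 (limma). On the brightest probe set of each gene, 7 of the 8 members had a negative fold change, against 46.0% of all genes. Of the 8, 2 were lower and 0 higher at an unadjusted p under 0.05, against 3.24% of all genes lower and 4.35% higher.

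The arrays correlated with each other at 0.970 to 0.989 over the named probe sets, with median signals of 40.4 to 42.5, and signals near these medians are read as near background. The Gapdh 3' to 5' ratio, a measure of RNA integrity and labelling, was 3.57, 2.997 and 4.53 in high-ROS replicates 1 to 3 and 3.19, 2.84 and 2.54 in low-ROS replicates 1 to 3. The ratio thus tended to be higher in high-ROS CMP, with overlap. Fits with it as a covariate cannot fully separate it from the group. Of the genes that set a CMP gate, Kit gave 523 to 749, Cd34 341 to 801 and Fcgr3 1670.3 to 1777 on the 6 arrays, and of those it should lack, Cd4 gave 30.6 to 54.7, Cd8a 23.1 to 49.1, Cd3e 53.4 to 102, Itgam 161 to 252 and Il7r 666 to 835. Kit alone of these had groups that did not overlap, at 523 to 559 in high-ROS and 561 to 749 in low-ROS CMP. Its log2 fold change was -0.22 (adjusted p = 0.744, limma), and -0.82 on its other probe set. The summed signal of 7 measured mature neutrophil markers was 48491 to 49617 in high-ROS CMP and 48625 to 51528 in low-ROS CMP. That of 12 measured lymphoid markers was 4719 to 5364 in high-ROS CMP and 4649 to 5715 in low-ROS CMP. Genes of these cell types thus gave signal on every array, at sums that overlapped between the groups. The neutrophil genes S100a8 and S100a9 lay between 12273 and 13258, against a highest signal of 15128 to 15899 per array. Whether these transcripts came from CMP or from other cells was not tested. The summed signal of 17 stem and multipotent progenitor markers was 2036 to 2339 in high-ROS CMP and 2983 to 3269 in low-ROS CMP. Its mean difference lay mostly in Angpt1, at 426 in high-ROS and 935 in low-ROS CMP, and Tek, at 49.0 in high-ROS and 262 in low-ROS CMP, while Flt3 stood at 250 in high-ROS and 156 in low-ROS CMP. The summed signal of 14 megakaryocyte markers was 4317 to 4955 in high-ROS CMP and 6399 to 6888 in low-ROS CMP, and that of 14 erythroid markers 17291 to 19441 in high-ROS CMP and 20918 to 21060 in low-ROS CMP. F2r, at 335 in high-ROS and 1156 in low-ROS CMP, Pf4 and Plek made up most of the megakaryocyte difference, and Slc4a1 and Car2 most of the erythroid one. Groups that did not overlap and were lower in high-ROS CMP were found for 5.32% of all genes on their brightest probe set. Among the markers they were found for 5 of 17 stem, 6 of 14 megakaryocyte and 4 of 14 erythroid markers. The same held for 3 of 7 mature neutrophil markers (Ngp, Ltf and Mmp8), although their sums overlapped. It held for 0 of 12 lymphoid markers and 1 of 8 mast cell, basophil and eosinophil markers. The summed signal of 14 granulocyte-monocyte markers was 25751 to 28512 in high-ROS CMP and 23649 to 24460 in low-ROS CMP, and that of 8 mast cell, basophil and eosinophil markers 12141 to 14645 in high-ROS CMP and 14028 to 15606 in low-ROS CMP. Of the granulocyte-monocyte markers, 7 of 14 were higher in high-ROS CMP with groups that did not overlap, against 8.06% of all genes. F13a1, at 3161 in high-ROS and 2483 in low-ROS CMP, Ctsg, Csf1r, Ms4a6c, Irf8 and Ly86 made up most of the granulocyte-monocyte difference. Csf3r, at 501 in high-ROS and 616 in low-ROS CMP, Csf2ra and Gfi1 went the other way.

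Cdkn1a encodes p21, which arrests cells in response to p53, the transcription factor of DNA damage, and to other stress. On probe set 1421679_a_at its signal was 175, 218 and 155 in high-ROS replicates 1 to 3, against 342, 349 and 407 in low-ROS replicates 1 to 3. The groups did not overlap, with a gap of 125 between the highest high-ROS and the lowest low-ROS array. The means were 183 ± 32.04 in high-ROS and 366 ± 35.3 in low-ROS CMP (SD, n = 3 arrays each), a log2 fold change of -0.95 (SE 0.171, 95% interval -1.33 to -0.58) or 1.94-fold lower on the scale of signal plus 16. The unadjusted p was 0.000183, and 36 of 34945 probe sets had a smaller one, but the adjusted p was 0.170, so the difference did not pass (limma). Over the alternative settings the adjusted p lay between 0.0519, with array weights, and 0.805, without high-ROS replicate 1. In the fit with the Gapdh covariate the log2 fold change was -0.69 (adjusted p = 0.783, limma).

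On the other Cdkn1a probe set, 1424638_at, the signal was 559.9, 379 and 351 in high-ROS replicates 1 to 3, against 1050.2, 660.1 and 493 in low-ROS replicates 1 to 3. Here the groups overlapped, since high-ROS replicate 1 lay above low-ROS replicate 3. The means were 430.05 ± 113 in high-ROS and 734 ± 286 in low-ROS CMP (SD, n = 3 each), with a log2 fold change of -0.71 (SE 0.256, 95% interval -1.28 to -0.15, adjusted p = 0.650, limma). Without low-ROS replicate 1, its brightest array, the log2 fold change was -0.42. The arrays ordered differently on the 2 probe sets: the ratio of 1421679_a_at to 1424638_at on one array was 0.313, 0.574 and 0.440 in high-ROS replicates 1 to 3 and 0.326, 0.529 and 0.825 in low-ROS replicates 1 to 3. In these bulk samples, fewer cells of a type that holds Cdkn1a RNA and less Cdkn1a RNA per cell cannot be told apart. The stem cell, megakaryocyte and erythroid marker sums were lower in high-ROS CMP as well, with differences that lay mostly in the few genes named above. Of these markers, 3 of 17, 4 of 14 and 1 of 14 were under 50 on every array. The granulocyte-monocyte sum was higher, again mostly through the genes named above and with some markers lower, and 0 of 14 markers were under 50 on every array. The part of these cell types, and of mature neutrophils and lymphoid cells, in the values of Cdkn1a, Cdkn2d and the other members was not tested.

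**Figure D1:**
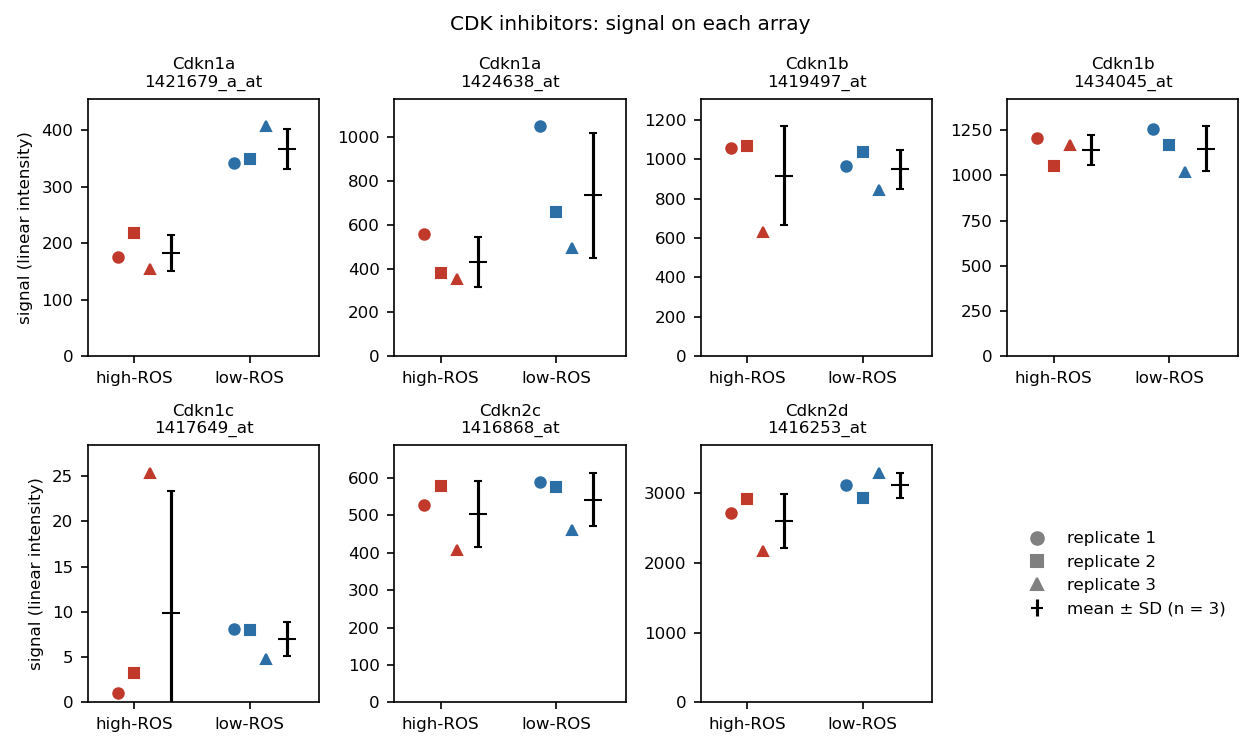
Signal (linear intensity) of the 7 probe sets of CDK inhibitors on each array, high-ROS CMP in red at the left and low-ROS CMP in blue at the right of each panel; symbols mark replicates and black bars the mean ± SD (n = 3), cut off at 0 where they would reach below it. Only for Cdkn1a 1421679_a_at and Cdkn2d do all 3 high-ROS arrays lie below all 3 low-ROS arrays.

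The RefSeq promoter table (GRCm38.p6) held windows for 6 of the 8 members, 8 windows in all, but not for Foxo4 and Cdkn1c. Each window runs from 250 bases before to 50 bases after an annotated transcript start. The windows of the genes whose groups did not overlap on a probe set, Cdkn1a with 2 annotated starts and Cdkn2d, are shown. That of Cdkn1b, named above with Cdkn1a among the genes FoxO factors switch on, is added to set their letters side by side. The 250 bases before the start are printed 5′ to 3′ on the gene's strand, and capitals mark matches to the motifs searched.
Cdkn1a, upstream start, chr17:29090729-29090978 (+): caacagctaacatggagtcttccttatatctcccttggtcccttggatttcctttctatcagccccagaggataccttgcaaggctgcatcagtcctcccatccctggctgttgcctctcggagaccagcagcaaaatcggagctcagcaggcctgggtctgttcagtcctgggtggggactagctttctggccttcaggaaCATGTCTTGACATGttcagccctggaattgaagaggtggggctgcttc
Cdkn1a, downstream start, chr17:29093519-29093768 (+): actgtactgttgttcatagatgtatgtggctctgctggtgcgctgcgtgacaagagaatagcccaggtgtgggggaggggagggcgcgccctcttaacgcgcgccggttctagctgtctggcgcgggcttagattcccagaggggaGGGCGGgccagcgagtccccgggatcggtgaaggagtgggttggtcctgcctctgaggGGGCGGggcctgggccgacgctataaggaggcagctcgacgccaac
Cdkn2d, chr9:21291210-21291459 (-): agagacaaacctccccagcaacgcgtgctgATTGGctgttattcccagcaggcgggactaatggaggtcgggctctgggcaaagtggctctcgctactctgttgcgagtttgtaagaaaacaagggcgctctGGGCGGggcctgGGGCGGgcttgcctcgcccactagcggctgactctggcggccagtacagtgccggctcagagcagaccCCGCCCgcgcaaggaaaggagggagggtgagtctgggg
Cdkn1b, chr6:134920151-134920400 (+): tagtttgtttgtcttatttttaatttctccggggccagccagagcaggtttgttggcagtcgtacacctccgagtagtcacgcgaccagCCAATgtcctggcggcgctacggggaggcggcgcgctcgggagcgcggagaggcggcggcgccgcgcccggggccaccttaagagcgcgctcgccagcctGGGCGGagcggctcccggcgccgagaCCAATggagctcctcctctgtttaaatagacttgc

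The motifs were searched on both strands and over the full 300 bases. A pair of p53 core letters at the spacing of a full p53 site, CATGNNNNNNCATG, was found in 1 of the 8 windows, that of the upstream Cdkn1a start, with its first base 48 bases before the start, and in 0.712% of 32851 windows of all genes. The letters GTAAACA, which FoxO factors bind, were in 0 of the 8 windows, and in 3.65% of all windows. Only these exact letters were searched, and at that share 0 of 8 does not show that the windows lack FoxO sites. The GC box GGGCGG was in 6 of the 8 windows and in 35.7% of all windows, and the CCAAT box, by the letters CCAAT, was in 4 of the 8 and in 37.4% of all windows. No matches overlapped in the printed bases. A match describes letters only, and where the probes of the array lie relative to the 2 Cdkn1a starts was not given.

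Cdkn1b, which encodes p27, gave nearly the same signals in both groups on probe set 1434045_at. They were 1208, 1049.7 and 1169 in high-ROS replicates 1 to 3, against 1259, 1171 and 1017 in low-ROS replicates 1 to 3, and the groups overlapped over most of their range. The means were 1142 ± 82.3 in high-ROS and 1149 ± 122 in low-ROS CMP (SD, n = 3 each), and the 95% interval of the fold change ran from 0.830 to 1.196 (adjusted p = 0.994, limma; log2 fold change -0.01, SE 0.119).

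The other Cdkn1b probe set, 1419497_at, was low on a single array. Its signal was 1055, 1067 and 629 in high-ROS replicates 1 to 3, against 966, 1037 and 842 in low-ROS replicates 1 to 3. High-ROS replicate 3 was lowest, and its Gapdh 3' to 5' ratio was the highest of the 6. The log2 fold change was -0.08 (SE 0.191, 95% interval -0.50 to 0.34, adjusted p = 0.944, limma) and turned to 0.165 without that array. The ratio of 1419497_at to 1434045_at was 0.538 on that array, against 0.874 and 1.017 on high-ROS replicates 1 and 2 and 0.767 to 0.886 on the low-ROS arrays. The part of the Gapdh ratio in this value was not tested beyond the fits with the ratio as a covariate and without that array.

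Cdkn1c, which encodes p57, an inhibitor prominent in quiescent blood stem cells, lay near background. Its only probe set gave 1, 3.25 and 25.4 in high-ROS replicates 1 to 3, against 8.10, 7.99 and 4.79 in low-ROS replicates 1 to 3. With such signals neither a level nor a difference can be read, and the fitted log2 fold change of 0.06 (SE 0.277) reversed with a pseudocount of 1.

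Of the INK4 members, Cdkn2d gave 2707, 2911 and 2167 in high-ROS replicates 1 to 3, against 3110.5, 2923 and 3281 in low-ROS replicates 1 to 3. The groups did not overlap, but the gap between them was 11.8 signal units, between high-ROS replicate 2 and low-ROS replicate 2. The means were 2595 ± 385 in high-ROS and 3105 ± 179 in low-ROS CMP (SD, n = 3 each), a log2 fold change of -0.27 (SE 0.117, 95% interval -0.52 to -0.01, adjusted p = 0.675, limma). It was -0.14 without high-ROS replicate 3 and -0.05 in the fit with the Gapdh covariate, which is partly shared with the group. Groups that did not overlap were found for 2 of the 16 member probe sets, both lower in high-ROS CMP, against 13.2% of all probe sets, 5.95% lower and 7.21% higher. Of the 14078 probe sets with a mean signal of at least 100, 1078 were lower and 1237 higher without overlap.

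Cdkn2c gave 527, 578 and 407 in high-ROS replicates 1 to 3, against 590.3, 577 and 460.4 in low-ROS replicates 1 to 3. The groups overlapped, and the lowest array of each was replicate 3. The log2 fold change was -0.11 (SE 0.164, 95% interval -0.47 to 0.25, adjusted p = 0.906, limma), and it was 0.03 without high-ROS replicate 3.

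**Figure D2:**
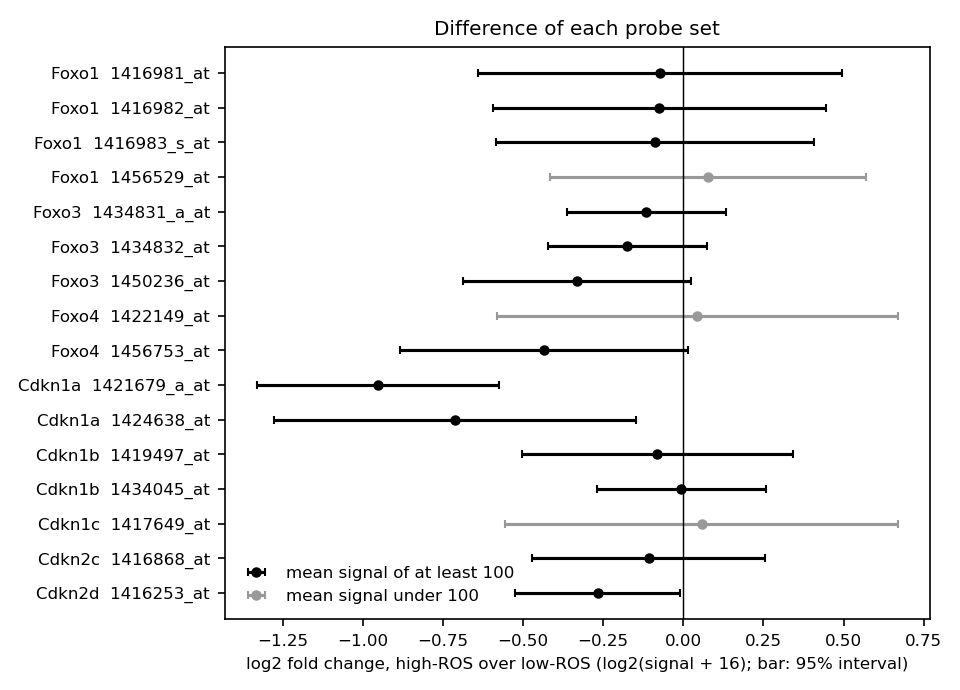
Log2 fold change of each of the 16 probe sets, high-ROS over low-ROS CMP, on the log2(signal + 16) scale, with 95% intervals from limma that are not adjusted for the number of probe sets; grey marks the 3 probe sets with a mean signal under 100. The intervals of both Cdkn1a probe sets and of Cdkn2d lie below 0, and all the others include 0.

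Among the FoxO factors, Foxo3, known as the main member in keeping mouse blood stem cells quiescent, had 3 probe sets with negative fold changes. On 1434831_a_at, the brightest of them, the signal was 1314, 1166 and 1325 in high-ROS replicates 1 to 3, against 1282, 1516 and 1332 in low-ROS replicates 1 to 3. The groups overlapped, with a log2 fold change of -0.12 (SE 0.112, 95% interval -0.36 to 0.13, adjusted p = 0.842, limma). The signal of 1434832_at was 1089.5, 1046 and 1012 in high-ROS replicates 1 to 3, against 1225, 1277 and 1066 in low-ROS replicates 1 to 3. High-ROS replicate 1 alone lay above the lowest low-ROS array, and the log2 fold change was -0.17 (SE 0.112, adjusted p = 0.750).

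The third Foxo3 probe set, 1450236_at, gave 946, 831 and 694 in high-ROS replicates 1 to 3, against 1282, 937 and 916 in low-ROS replicates 1 to 3. Its log2 fold change was the most negative of the 3, at -0.33 (SE 0.161, 95% interval -0.69 to 0.02, adjusted p = 0.690, limma), and it was -0.18 without low-ROS replicate 1, the brightest array. The ratio of 1434831_a_at to 1450236_at was 1.39 to 1.91 in high-ROS and 1 to 1.62 in low-ROS CMP. All 3 kept their sign in each of the alternatives, and none passed in any, but that of 1434831_a_at shrank to -0.04 without low-ROS replicate 2 and to -0.06 without high-ROS replicate 2 or with quantile normalization.

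Foxo1 had 4 probe sets, of which 1416983_s_at was the brightest. Its signal was 351, 371 and 660 in high-ROS replicates 1 to 3, against 425, 558 and 438 in low-ROS replicates 1 to 3. High-ROS replicate 3 was the highest of all 6 arrays and the other high-ROS arrays were the lowest, so the groups overlapped. The means were 461 ± 173 in high-ROS and 474 ± 72.9 in low-ROS CMP (SD, n = 3 each), with a log2 fold change of -0.09 (SE 0.225, 95% interval -0.58 to 0.41, adjusted p = 0.949, limma).

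High-ROS replicate 3 was also the highest high-ROS array on Foxo1 1416982_at, with 280.5 against 134.5 and 191.5 on the other high-ROS arrays and 187 to 221 on the low-ROS arrays. On 1416981_at the high-ROS arrays spanned 116 to 227 and the low-ROS arrays 135 to 233. Both had a log2 fold change of -0.07, with SE of 0.234 and 0.257. With the Gapdh covariate the log2 fold change was -0.56 on 1416982_at, -0.47 on 1416983_s_at and -0.23 on 1416981_at, and with array weights it was -0.13, -0.29 and -0.335 on these, and none passed. The array that was low for Cdkn1b 1419497_at, Cdkn2c and Cdkn2d was thus high for Foxo1. The last Foxo1 probe set, 1456529_at, was near background, at 14.9 to 25.3 in high-ROS and 10.3 to 24.8 in low-ROS CMP.

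Foxo4 was read on 1456753_at at 306, 279 and 206 in high-ROS replicates 1 to 3, against 465, 302 and 325 in low-ROS replicates 1 to 3. High-ROS replicate 1, by under 5 signal units above low-ROS replicate 2, made the groups overlap. The log2 fold change was -0.43 (SE 0.204, 95% interval -0.88 to 0.02, adjusted p = 0.680, limma), the most negative among the FoxO probe sets, and -0.25 without low-ROS replicate 1. The other Foxo4 probe set, 1422149_at, was near background, at 2.81 to 18.2 in high-ROS and 1.95 to 21.3 in low-ROS CMP.

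**Figure D3:**
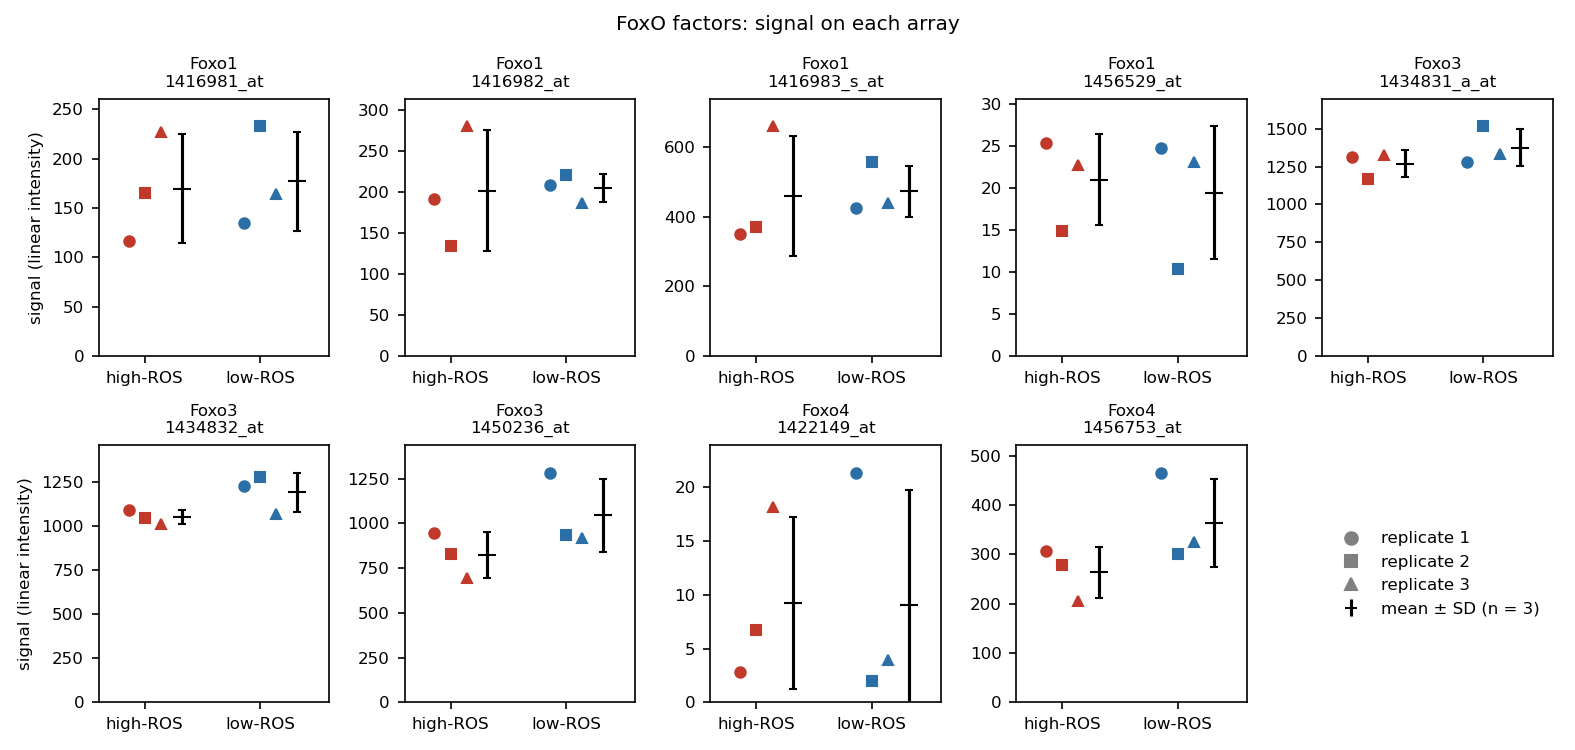
Signal (linear intensity) of the 9 FoxO probe sets on each array, high-ROS CMP in red at the left and low-ROS CMP in blue at the right of each panel; symbols mark replicates and black bars the mean ± SD (n = 3), cut off at 0 where they would reach below it. The groups overlap in every panel, and high-ROS replicate 3 is the highest array for Foxo1 1416983_s_at.

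**Figure D4:**
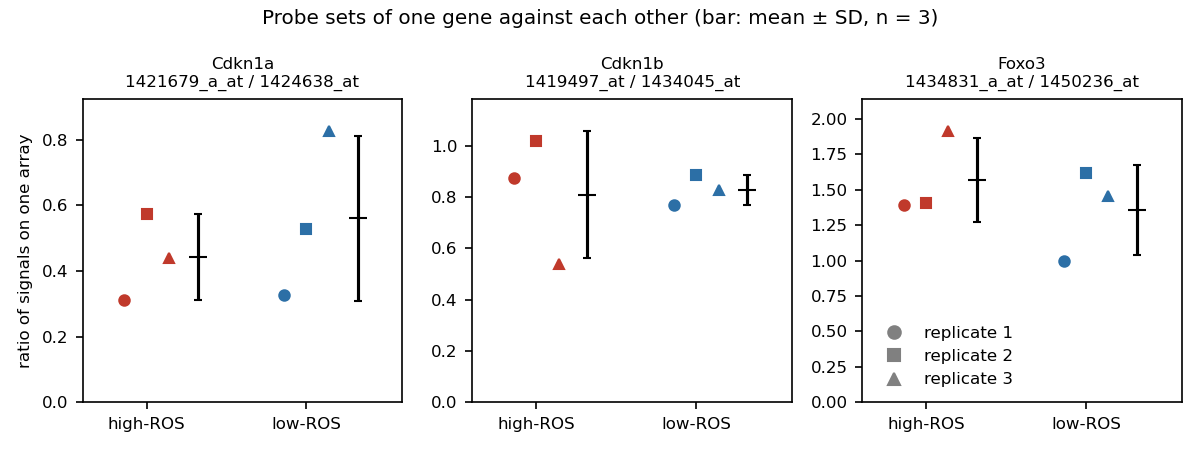
Ratio of the signals of a pair of probe sets of one gene on each array, for Cdkn1a, Cdkn1b and Foxo3, with symbols for replicates and the mean ± SD (n = 3); high-ROS CMP are at the left of each panel. For Cdkn1b the ratio is 0.538 on high-ROS replicate 3 and 0.767 to 1.017 on the other arrays.

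Genes around the members were read on the brightest probe set of each gene, and none of these passed the test. Of 38 measured FoxO targets other than the members, 24 had a negative fold change (46.0% of all genes did), with a median log2 fold change of -0.06 against 0.02 over 18193 genes. At an adjusted p under 0.05, 0 were lower and 0 higher, where 0.0275% of genes were called, all lower. At an unadjusted p under 0.05, 6 were lower and 0 higher, against 3.24% of genes lower and 4.35% higher. Ccnd2, which is also in the list of cyclins below, is among the 6. The list does not separate genes that FoxO factors raise from genes they lower, so its counts give no direction of FoxO activity. Among the 14078 probe sets with a mean signal of at least 100, 51.4% had a negative fold change. At an unadjusted p under 0.05 (limma), 734 of them were lower and 675 higher. Ddit4, an inhibitor of the growth kinase mTORC1, had 1256 ± 131 in high-ROS and 1804 ± 154 in low-ROS CMP (SD, n = 3 each), with groups that did not overlap and a log2 fold change of -0.52 (adjusted p = 0.367, SE 0.115, limma). Bcl2l11, the death protein Bim, stood at -0.44 (SE 0.162) and at -0.73 to -0.02 on its other probe sets. Gadd45b, a stress sensor, had -0.47 (SE 0.192), and Fbxo32, a ubiquitin ligase known from muscle, -0.78 (SE 0.259) from signals near background, with 0.12 and 0.13 on its other ones.

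Of 35 measured regulators upstream of FoxO, 20 had a negative fold change, and the median was -0.02, with 0 called and 1 lower and 3 higher at an unadjusted p under 0.05. Over all genes, 46.0% were negative, and 3.24% were lower and 4.35% higher at that p. The list pools genes of opposed action, such as Akt1 and Inpp5d below, so its counts and median give no direction for FoxO. The insulin-like growth factor receptor Igf1r had 782 ± 118 in high-ROS and 1089 ± 47.7 in low-ROS CMP (SD, n = 3 each), a log2 fold change of -0.48 (adjusted p = 0.545, SE 0.132, limma), and negative values on all its 5 probe sets. Inpp5d, the phosphatase SHIP1, which opposes phosphoinositide 3-kinase, had 0.31 (SE 0.124), and -0.02 on its other probe set. Akt1, the kinase that keeps FoxO out of the nucleus, had 0.49 (SE 0.160) on the brightest of 4 probe sets but -0.33 to -0.19 on the others. Pik3r2, a regulatory subunit of phosphoinositide 3-kinase, had 0.47 (SE 0.184) from signals near background.

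Of 32 measured cyclins, CDKs and genes of the Rb-E2F step, on which CDK inhibitors act, 15 had a negative and 17 a positive fold change, with a median of 0.06. None was called (0 of 32), and 3 were lower and 1 higher at an unadjusted p under 0.05, against 3.24% of all genes lower and 4.35% higher, with 46.0% of all genes negative. The transcription factor E2f2 had -0.41 (SE 0.127, adjusted p = 0.632, limma), its partner Tfdp2 -0.38 (SE 0.119), and Ccnd2, cyclin D2, -0.38 (SE 0.168), with values of either sign on the other Tfdp2 and Ccnd2 probe sets. Rbl1, the Rb relative p107, had 0.37 (SE 0.141), and -0.49 to 0.24 on its other ones.

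Of 28 measured genes of inhibitor turnover and further inhibitors, 17 had a negative fold change, with a median of -0.04, 0 called, and 0 lower and 2 higher at an unadjusted p under 0.05, against the same 3.24% and 4.35% of all genes and 46.0% negative. These genes were Cdk5rap3, a CDK5-associated protein, at 0.48 (SE 0.167), and Cdc20, an activator of the anaphase-promoting complex, at 0.26 (SE 0.116). Cks1b, a cofactor in the ubiquitination of p27, had 4049 ± 135 in high-ROS and 3641 ± 96.6 in low-ROS CMP (SD, n = 3 each), a log2 fold change of 0.15 (adjusted p = 0.698, SE 0.0795, limma), and Mdm4, an inhibitor of p53, had -0.38 (SE 0.183) and -0.07 to 0.02 on its other probe sets.

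Of 23 measured p53 targets other than Cdkn1a, 15 had a negative fold change, with a median of -0.07, 0 called, and 1 lower and 0 higher at an unadjusted p under 0.05. Of all genes, 46.0% were negative, 3.24% lower and 4.35% higher at that p, so 1 of 23 lies near the background. The lower gene was Dusp5, a phosphatase of ERK kinases, with 474 ± 98.0 in high-ROS and 702 ± 7.38 in low-ROS CMP (SD, n = 3 each) and a log2 fold change of -0.57 (adjusted p = 0.539, SE 0.155, limma). Perp, a membrane protein of p53-driven death, had -0.44 (SE 0.204), Trp53inp1, a stress protein, -0.15 (SE 0.0901), and Phlda3, an inhibitor of Akt, 0.42 (SE 0.264) from signals near background.

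**Figure D5:**
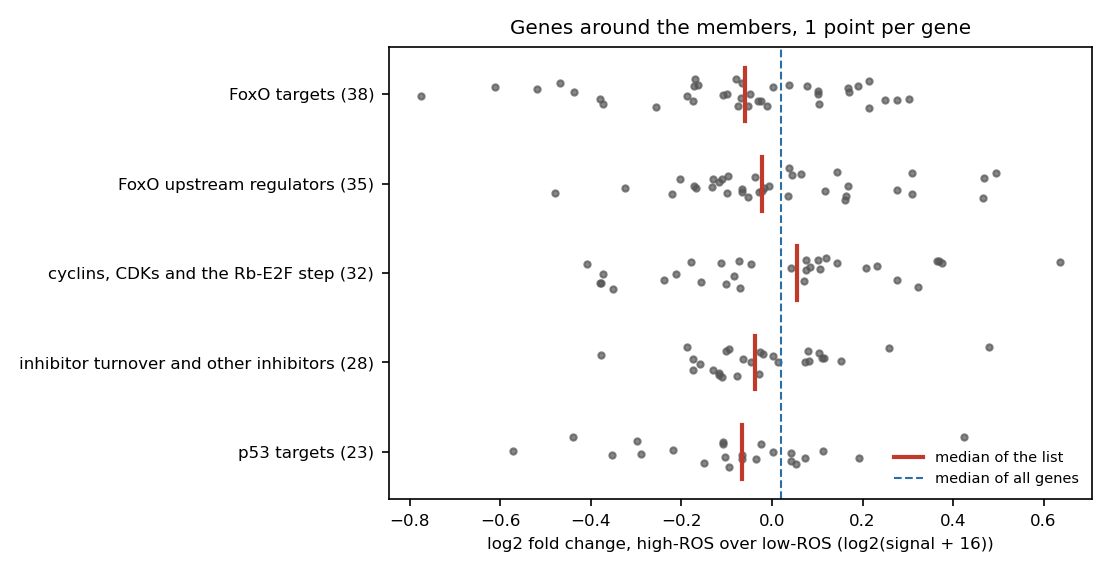
Log2 fold change, high-ROS over low-ROS CMP, of the genes of 5 lists, 1 point per gene on its brightest probe set, with the number measured in brackets; red bars are list medians and the dashed line the median of all genes, 0.02. List medians lie between -0.07 and 0.06.

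The genes most like Cdkn1a 1424638_at over the 6 arrays, by the root mean square difference of log2 values centred on their own mean, were Fndc9 at 0.136, Dsel at 0.154 and Neurl3 at 0.188, among 8150 genes with a mean signal of at least 100 and a median difference of 0.534. For Cdkn2d they were Mak16 at 0.0196, Parvb at 0.0271 and Arpc2 at 0.0359, with a median of 0.258. Neurl3 signals were 564, 466 and 426 in high-ROS replicates 1 to 3, against 890.2, 766 and 589.9 in low-ROS replicates 1 to 3, so that, as for Cdkn1a 1424638_at but not 1421679_a_at, replicate 1 was the highest array in each group. The likeness describes these 6 arrays only, and its arrays include those of the comparison above.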

How the data were processed

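Total RNA of sorted CMP was amplified and biotin labelled with the NuGEN Ovation system and read on 1-colour arrays, per the labels' protocols. The authors deposited a linear intensity for each probe set; the probe summary and scaling behind it are not given in the sources used here. Probe sets were named from the platform's annotation: of 45101, 34945 had 1 symbol (18193 genes), 932 had several, 64 were controls and 9160 are unnamed here. All 6 array columns matched a sample.

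A pseudocount of 16 was added before log2, which shrinks fold changes of dim probe sets. The groups were compared over all 34945 probe sets with limma 3.58.1 in R 4.3.3 (lmFit, eBayes with a mean-variance trend, 2-sided, Benjamini-Hochberg, threshold 0.05; 4 residual degrees of freedom). With 3 against 3 arrays the smallest p of an exact permutation test is 0.1, and that test was not used. Values are deposited signals, mean ± SD over 3 arrays, whose number limits the precision; there are no detection calls and no batch labels.

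Tested on simulated data (5 runs, 200 of 34945 probe sets shifted), the fit called 42.4% of shifts of log2 size 1 and 88.4% of size 2 in the right direction, and 3.11% of calls were false. The members, gene lists and alternatives were chosen with earlier results of these data known. Named besides the members are up to 4 genes per list with the smallest p and the 3 genes most like each of the 2 members with the smallest p on their brightest probe set. Listed genes with no probe set of a single symbol are not analysed here. Promoters come from RefSeq (GRCm38.p6). Plots used matplotlib 3.10.9 in Python 3.11.15.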

Additional observations from a re-analysis of the deposited data

How the results depend on the processing

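No member probe set (0 of 16) passed an adjusted p under 0.05 with limma in any of 15 alternative fits or an adjusted p under 0.1 with the reported settings. With the reported settings, 3 lower (both of Cdkn1a and that of Cdkn2d) and 0 higher had an unadjusted p under 0.05. Both Cdkn1a probe sets, Cdkn2d, the 3 of Foxo3 and Foxo4 1456753_at, 7 in all, kept a negative fold change in each fit that tested them. The count of all probe sets called was 0 higher and 7 lower. It was 0 lower with no mean-variance trend (at an unadjusted p under 0.05, 1359 higher and 1143 lower), 5 higher and 15 lower among probe sets above the median signal, 1 higher with quantile normalization, 3 higher with 1 probe set per gene, 10 higher and 21 lower with array weights, 4 lower with the Gapdh ratio as a covariate, and 5 higher and 13 lower at an adjusted p under 0.1. Leaving out 1 array gave 0 higher and 1 to 6 lower: 6 when high-ROS replicate 3 was dropped, 3 when it was high-ROS replicate 2, and 1 for any low-ROS array or high-ROS replicate 1. With the replicate number as a block it was 0 higher and 3 lower, and the adjusted p of the Cdkn1a probe sets was 0.347 for 1421679_a_at and 0.381 for 1424638_at. Deviations from the group means correlated at 0.105, 0.0845 and -0.0008 between arrays of the same number, and at -0.114 to 0.0597 between arrays of different numbers. High-ROS replicates 1 and 2 correlated best with their own number, and high-ROS replicate 3 did not. With 3 arrays per group this cannot settle whether the numbers pair the arrays. The reported fit does not pair them, and the block fit above does.

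Fold changes near 0 turned positive for Cdkn1b 1434045_at with quantile normalization (0.043) and array weights (0.0445), for Cdkn1b 1419497_at with array weights (0.055) and the Gapdh covariate (0.23), and for Cdkn2c with that covariate (0.033). They turned negative for Cdkn1c with a pseudocount of 1 (-0.36), array weights (-0.17) and the Gapdh covariate (-0.53), and with that covariate for Foxo4 1422149_at (-0.48) and Foxo1 1456529_at (-0.077). Leaving out 1 array, the ranges that crossed 0 were -0.29 to 0.15 for Foxo1 1416981_at, -0.32 to 0.17 for 1416982_at, -0.37 to 0.072 for 1416983_s_at, -0.12 to 0.20 for 1456529_at, -0.20 to 0.37 for Foxo4 1422149_at, -0.21 to 0.165 for Cdkn1b 1419497_at, -0.0895 to 0.062 for Cdkn1b 1434045_at, -0.34 to 0.30 for Cdkn1c and -0.22 to 0.033 for Cdkn2c. With array weights the fold change shrank to -0.43 for Cdkn1a 1424638_at, -0.17 for Foxo3 1450236_at, -0.24 for Foxo4 1456753_at and -0.024 for Cdkn2c. The lowest weights were those of high-ROS replicate 3, at 0.508, and low-ROS replicate 1, at 0.603. Without low-ROS replicate 1 the fold change was -0.42 for Cdkn1a 1424638_at, -0.18 for Foxo3 1450236_at and -0.25 for Foxo4 1456753_at. What set these arrays apart was not tested. The 3 probe sets with a mean signal under 100 are too near background to show a difference.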

Other observations

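A probe set annotated to both Foxo3 and the predicted gene Gm38485, and so left out of the comparison, gave signals of 74.8, 52.1 and 135 in high-ROS replicates 1 to 3, against 242, 55.4 and 90.3 in low-ROS replicates 1 to 3. The groups overlapped, and low-ROS replicate 1 was the brightest array, as it was for Foxo3 1450236_at.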
